A study of Saccharomyces cerevisiae with 18 samples.

Results

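Levels of messenger RNA in budding yeast that had been moved briefly to ice-cold buffer were set against levels in yeast taken directly from growth in glucose. A gene was included when it was annotated as mRNA, was listed under both conditions and had a mean normalised count of at least 50 in at least 1 of them. These criteria were met by 5418 of the 6429 mRNA genes listed under either condition, and of 9543 features of all kinds. The mean count of BY4741 and its snr4 deletion derivative together was the only level given per gene, so every comparison here is a description and no test could be made.

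The series holds 18 RNA libraries, and the 12 used here were made from poly(A)-selected RNA. The glucose groups were BY4741 and the snr4 deletion strain, which lacks the snoRNA snR4, with 3 libraries each from cells grown to mid-log phase at 30 °C in synthetic medium with glucose. The ice groups were the same strains, again with 3 libraries each, from cells grown in that medium and then held for a short time in ice-cold phosphate-buffered saline before freezing. The cells taken from glucose were also collected by cold centrifugation and passed through buffer, so the stated difference is the time in ice-cold buffer. During that time the cells were also out of their glucose medium, so cold and loss of medium cannot be told apart. BY4741 carries his3Δ1, leu2Δ0, met15Δ0 and ura3Δ0, and all 4 groups share these alleles. The mean counts of LEU2 were 0.70 in glucose and 1.86 on ice, and those of URA3 were 3.57 and 3.14, so both deleted genes were close to 0. HIS3, of which his3Δ1 removes only a piece, was at 1162 and 938. Each mean pools both strains, so the loss of snR4 could not be checked per library. The authors' fold changes between strains were not used here, so the strains were not separated. One part of the study's text names a change of carbon source for the second condition, and the labels are followed here.

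The genes that respond together to stress and growth in yeast are among the best described in any eukaryote. Cells growing fast on glucose devote much of their transcription to ribosomes. A large set of genes encodes the factors that assemble them, and many of these genes carry the PAC and RRPE motifs before their start codons. When growth slows, when glucose falls or when cells are stressed, the kinase PKA becomes less active. The activators Msn2 and Msn4 then enter the nucleus and bind the stress response element, whose core reads AGGGG. Their targets make trehalose and glycogen, detoxify peroxides and protect proteins. A further set of genes is repressed by glucose itself through Mig1 and is needed to use other carbon sources. Prolonged growth in the cold is known to raise a separate group of genes, among them TIP1, the TIR cell wall genes and NSR1.

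These sequences come from the R64 genome and RefSeq annotation and lie within the 300 bases before the start codon. They are shown because these motifs were unevenly distributed between the genes that were higher and lower on ice. The first 4 belong to genes that were far lower on ice, and capitals mark the stress response element, AGGGG or its reverse complement CCCCT.
GLC3: aagctttgtccaAGGGGctgttgcaacgg
RGI1: gcagcgttcttaAGGGGtattgctgggtg
USV1: cttcacggcttcCCCCTtaaccgttcaac
LEE1: ctttttcggcttCCCCTtgtttctacaaa
These lie at chrV:132895-132923, chrV:291836-291864, chrXVI:115043-115071 and chrXVI:455631-455659, all on the plus strand. GLC3 had 2 copies of the motif in its window, RGI1 had 3, USV1 had 1 and LEE1 had 2.

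The next 4 belong to genes that were higher on ice, and capitals mark the PAC motif GATGAG.
DBP7: tgaaaaatttgcGATGAGcttaggaaaata
GFD2: tgaaaaatttgcGATGAGcatccctcaaaa
BFR2: aatacgcgatgaGATGAGataattgtatat
RSA4: aaaaaaaaatgcGATGAGcttcaaaaagag
These lie at chrXI:487494-487523 on the minus strand, chrIII:58889-58918 and chrIV:1059511-1059540 on the plus strand, and chrIII:242427-242456 on the minus strand. The stretches of DBP7 and GFD2 were the same up to and including the motif. BFR2 had 2 copies in its window and the other 3 genes had 1 each. The copies of BFR2 share a letter, and the capitals mark the copy nearer the start codon. A match describes the letters only and does not show that a factor binds there.

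Most transcripts had much the same relative level under both conditions. Each level is the mean normalised count over 6 libraries, and the ice means were multiplied by 1.085 so that both conditions had the same sum over the 5418 genes. The authors normalised the conditions separately, so a level on ice and one in glucose are comparable only after this scaling. All levels are therefore relative to that sum, and a change in total mRNA per cell would not be seen. The ratio of ice to glucose is given as a log2 value after adding 1 to each level. Its median was 0.04, with quartiles at -0.22 and 0.27, and 4368 genes (80.6%) lay within 1.5-fold. Across genes the log2 levels had a Pearson correlation of 0.943 (n = 5418), which describes genes and not replicates. At least 2-fold higher on ice were 103 genes, or 1.90% of those compared. At least 2-fold lower on ice were 284 genes, or 5.24%. The tail was longer on the lower side. A 4-fold difference was reached by 83 lower genes and by 8 higher genes. The lower genes together took 5.91% of the counts in glucose and 1.67% on ice, while the higher genes took 0.57% and 1.36%.

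**Figure D1:**
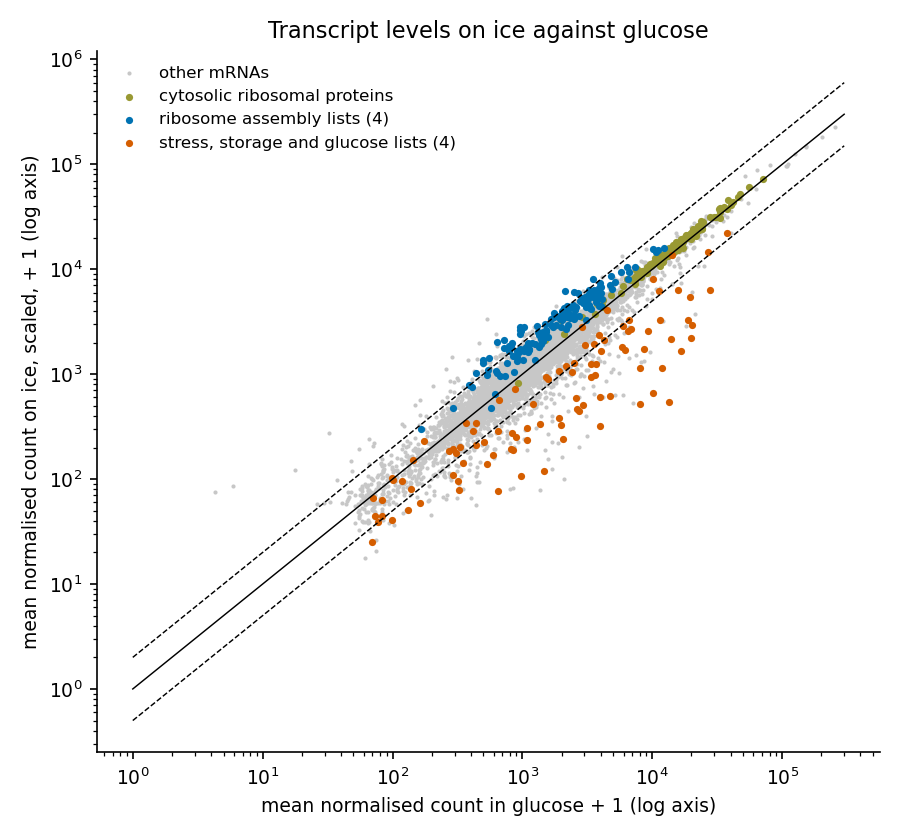
Mean normalised count on ice (vertical, scaled) against glucose (horizontal), both plus 1 and on log axes, for 5418 mRNAs. The solid line marks equal levels and the dashed lines 2-fold differences. Genes of the stress, storage and glucose lists lie mostly below the lines, ribosome assembly genes lie above the solid line in 147 of 148 cases, and ribosomal protein genes follow it.

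What can be said of error is limited. No value per library was used, so the spread between replicates is unknown. Counting error alone, taken from the worth of 1 read in the means, had a median of 0.03 on the log2 scale and did not exceed 0.27 for any gene. All libraries of a condition may also differ from those of the other in handling, and the labels give no batch, so handling and the condition cannot be told apart.

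The transcript with the lowest ratio was GSY1, which encodes a glycogen synthase. Its mean count was 13552 in glucose and 544 on ice, which is 24.9-fold lower (log2 -4.64). RCK1, a protein kinase gene linked to oxidative and osmotic stress, followed with 2095 in glucose and 99.6 on ice, or 20.8-fold lower. Both means pool BY4741 with the snr4 deletion strain, so a difference between the strains in either condition enters this and every other ratio. The authors' fold changes between strains were not used to take it out. For RCK1 the paper reports a higher level in the deletion strain than in BY4741 under standard conditions, and the pooled glucose mean includes that difference. YNL194C, which encodes a membrane protein of the eisosome family, had 1373 and 77.2, or 17.6-fold lower. The other genes among the 15 lowest of those averaging at least 200 counts were between 10.2-fold and 15.6-fold lower.

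Several of these 15 act on glycogen. GLC3 encodes the glycogen branching enzyme and had 8060 in glucose and 517 on ice (log2 -3.96). GAC1, which targets protein phosphatase 1 to glycogen synthase, had 1466 and 119 (log2 -3.61). IGD1, which encodes an inhibitor of the glycogen debranching enzyme, had 2707 and 203 (log2 -3.73). MRK1 is a homologue of the glycogen synthase kinase 3 family, and that name alone does not give it a role in glycogen. It had 1574 and 154 (log2 -3.35).

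Other members of the 15 have roles in respiration and stress. RGI1, needed for energy metabolism in respiring cells, had 10085 in glucose and 656 on ice (log2 -3.94). ISF1, linked to mitochondrial function, had 1682 and 125 (log2 -3.74). BDH2, a relative of butanediol dehydrogenase, had 7087 and 534 (log2 -3.73). The transcription factor gene USV1 had 3983 and 321 (log2 -3.63). These 4 therefore held over 10 times their ice level in glucose. TMA10, which encodes a ribosome-associated protein, had 11792 and 1149 (log2 -3.36), and the zinc finger gene LEE1 had 852 and 80.9 (log2 -3.38). The uncharacterised YJR115W and YNR034W-A had log2 ratios of -3.66 and -3.61.

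**Figure D2:**
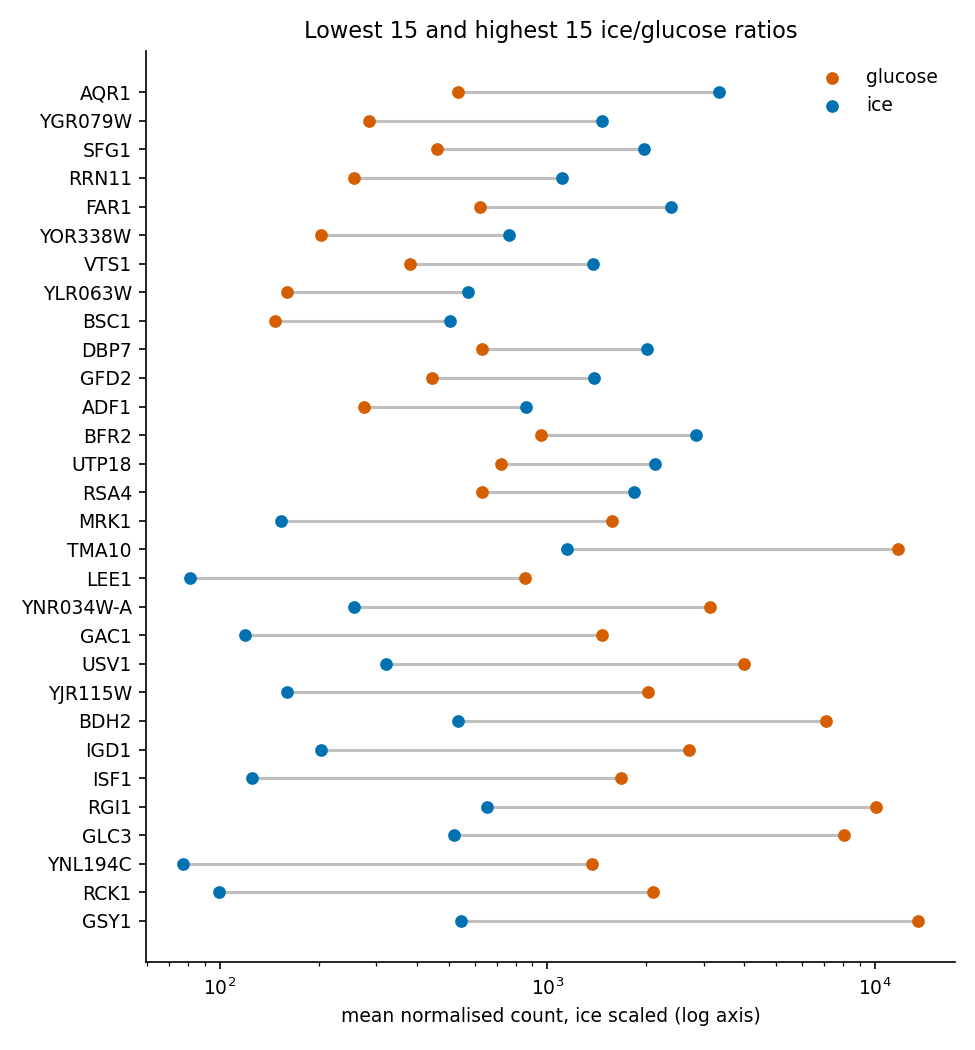
Mean normalised counts in glucose (orange) and on ice (blue, scaled) on a log axis for the 15 highest and 15 lowest ice to glucose ratios among genes averaging at least 200. The lower genes span 10.2-fold to 24.9-fold and the higher genes 2.91-fold to 6.26-fold.

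Storage carbohydrate genes were lower on ice as a group. Trehalose and glycogen are the glucose stores of yeast, and 16 of the 19 genes of the list were at least 2-fold lower on ice (84.2% against 5.24% of all genes), with none higher. The list's median log2 ratio was -1.88, against 0.04 over all genes.

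All subunit genes of the trehalose synthase complex were at least 2-fold lower. TPS1, the synthase, had a mean count of 19504 in glucose and 5397 on ice (log2 -1.85). TPS2, the phosphatase, had 20333 and 2921 (log2 -2.80). The regulatory subunit genes were unequal, with TSL1 at 19745 and 2196 (log2 -3.17) and TPS3 at 4235 and 2115, just past 2-fold. The enzymes that break trehalose down were also lower, NTH1 with a log2 ratio of -1.34, NTH2 with -1.20 and ATH1 with -1.21. Genes of synthesis and of breakdown thus lay on the same side.

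Glycogen genes showed the same. GSY2, the second glycogen synthase gene, had 13820 in glucose and 2156 on ice (log2 -2.68). GPH1, glycogen phosphorylase, had 8007 and 1132 (log2 -2.82), and GDB1, the debranching enzyme, had 3638 and 987 (log2 -1.88). The primers of glycogen synthesis differed from each other, since GLG1 had 2599 and 591 (log2 -2.13) whereas GLG2 had 369 and 339 (log2 -0.12). UGP1, which makes UDP-glucose, had a log2 ratio of -1.32. The 3 genes that were not past 2-fold were GLG2, the phosphoglucomutase gene PGM1 with -0.01, and PIG1 with 0.39. PIG2, a putative phosphatase targeting gene like PIG1, had -2.02.

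**Figure D3:**
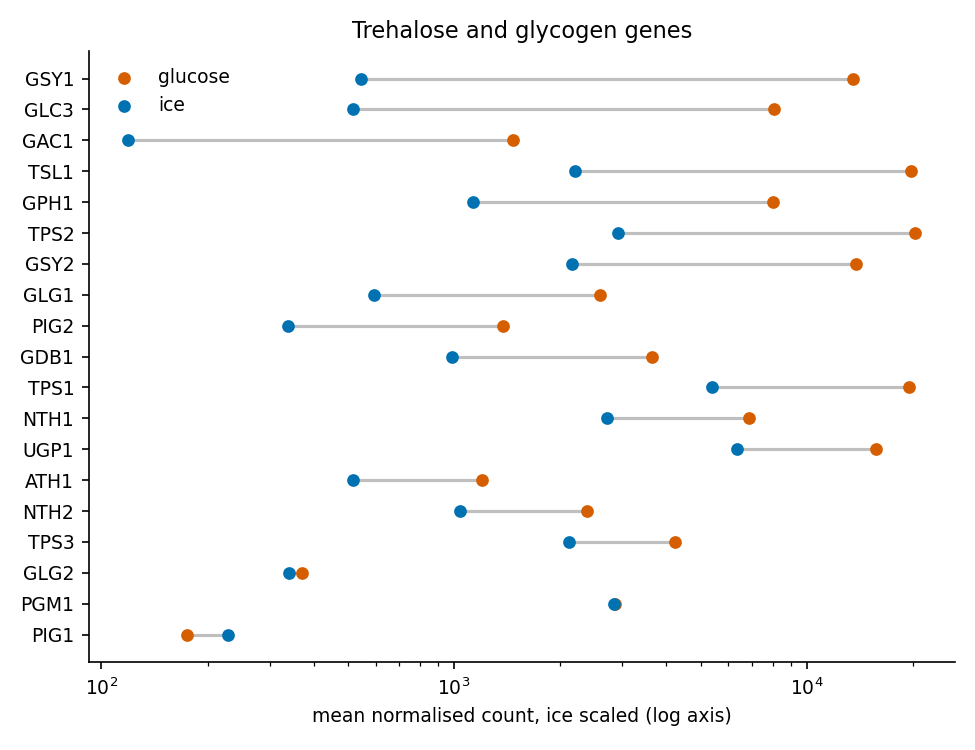
Mean normalised counts of 19 trehalose and glycogen genes in glucose (orange) and on ice (blue, scaled), on a log axis. In 16 genes the ice value is at least 2-fold below the glucose value, while GLG2 and PGM1 show nearly the same value and PIG1 is the gene with the higher value on ice.

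General stress genes, most of them known targets of Msn2 and Msn4, were below their glucose level in 44 of 44 cases. At least 2-fold lower were 29 of the 44 (65.9% against 5.24% of all genes), and the median was -1.64 against 0.04 over all genes. CYC7, a cytochrome c isoform, had a mean count of 979 in glucose and 106 on ice (log2 -3.20). SOL4, of the pentose phosphate pathway, had 2067 and 243 (log2 -3.09). DDR2 had 1973 and 327 (log2 -2.59), and CTT1, the cytosolic catalase, had 2940 and 508 (log2 -2.53). XBP1, a repressor made under stress, had a log2 ratio of -2.34. PNC1, the nicotinamidase, had -1.79, and the polyubiquitin gene UBI4 had -1.02.

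The list was not uniform. HSP12, one of the most used markers of this response, had 14292 in glucose and 13644 on ice (log2 -0.07). SIP18 had -0.10, HBT1 -0.28 and GRE1 -0.33. HSP26, a small heat shock protein gene, had 1521 and 929 (log2 -0.71). Of the activators themselves, MSN4 had 2175 and 1205 (log2 -0.85) and MSN2 had 1386 and 1702 (log2 0.30).

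Chaperone genes varied. Of 37 genes, 6 were at least 2-fold lower (16.2% against 5.24% of all genes), none was 2-fold higher, and the median was -0.16. The lower genes were HSP42 (log2 -2.64), HSP30 (-2.30), HSP104 (-1.73), HSP78 (-1.57), SSE2 (-1.42) and BTN2 (-1.13). HSP42 and BTN2 take part in sorting aggregated proteins, and HSP104 and HSP78 encode disaggregases. HSP104 had a mean count of 20104 in glucose and 6048 on ice. The inducible HSP82 had 7188 and 3894 (log2 -0.88), while its constitutive relative HSC82 had 25404 and 30154 (log2 0.25). SSE2 was at -1.42 and its relative SSE1 at 0.15. SSA3, an inducible Hsp70 gene, had 714 and 890 (log2 0.32), on the other side from HSP82 and SSE2. The ribosome-associated SSB1 and SSB2 each had a log2 ratio of 0.20.

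Genes for taking up and phosphorylating glucose differed by isoform. Of 8 hexose transporter genes with enough counts, 5 were at least 2-fold lower on ice (62.5% against 5.24% of all genes) and none was 2-fold higher. HXT4 had a mean count of 16717 in glucose and 1675 on ice (log2 -3.32). HXT2 had 27701 and 6277 (log2 -2.14). HXT7 had 4714 and 622 (log2 -2.92) and HXT6 had 651 and 75.4 (log2 -3.09). HXT6 and HXT7 are nearly identical in sequence, so the division of reads between them is uncertain. HXT5 had a log2 ratio of -1.74. The median of the 8 genes was -1.94, but it was -0.78 when transporter genes below the limit of 50 counts were included, and trehalose and glycogen genes (-1.88) then had the lower median. These include the transporters of higher affinity, which are made when glucose is scarce. The low-affinity transporters were closer to their glucose level, HXT3 with 37407 and 22301 (log2 -0.75) and HXT1 with 10197 and 8123 (log2 -0.33).

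The kinases that act on incoming glucose showed a like contrast. HXK1 had 18019 in glucose and 2860 on ice (log2 -2.65), and the glucokinase gene GLK1 had 21456 and 3750 (log2 -2.52). HXK2, the main hexokinase of cells growing on glucose, had 23246 and 19533 (log2 -0.25). EMI2, a paralogue of GLK1 that was picked after its values were seen, had 9609 and 1613 (log2 -2.57). Most of the rest of glycolysis hardly differed, with 15 of 19 genes of glycolysis and fermentation within 1.5-fold and a median of -0.14. That share is near the 80.6% of all genes within 1.5-fold. TDH1, the glyceraldehyde-3-phosphate dehydrogenase isoform of slow growth, had 25010 and 10658 (log2 -1.23), whereas TDH2 was at -0.26 and TDH3 at -0.15. ENO1 was at -0.87 and ENO2 at -0.02. These isoforms resemble each other in sequence, and how reads shared by paralogues were assigned is not stated.

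Among 27 genes repressed by glucose, 13 were at least 2-fold lower on ice (48.1% against 5.24% of all genes), none was 2-fold higher, and 26 lay below 0. The median was -0.996. ALD4, the mitochondrial acetaldehyde dehydrogenase gene, had a mean count of 18748 in glucose and 3256 on ice (log2 -2.53). ADY2, an acetate transporter gene, had 323 and 78.2 (log2 -2.03), and MAL11, a maltose transporter gene, had 887 and 249 (log2 -1.83). GUT2, of glycerol use, had 3681 and 1259 (log2 -1.55).

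Other members barely differed. The gluconeogenic gene PCK1 had 101 and 97.0 (log2 -0.05), ICL1 of the glyoxylate cycle had 664 and 563 (log2 -0.24), and ADH2 had 82.3 and 62.3 (log2 -0.40). SUC2, invertase, had 1567 and 908 (log2 -0.79). The 4 lists of storage, stress, glucose-repressed and hexose transporter genes held 98 genes in all, of which 95 lay below 0. Of the 98, 63 were at least 2-fold lower, against 5.24% of all genes. A further 0 were 2-fold higher, against 1.90% of all genes.

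**Figure D4:**
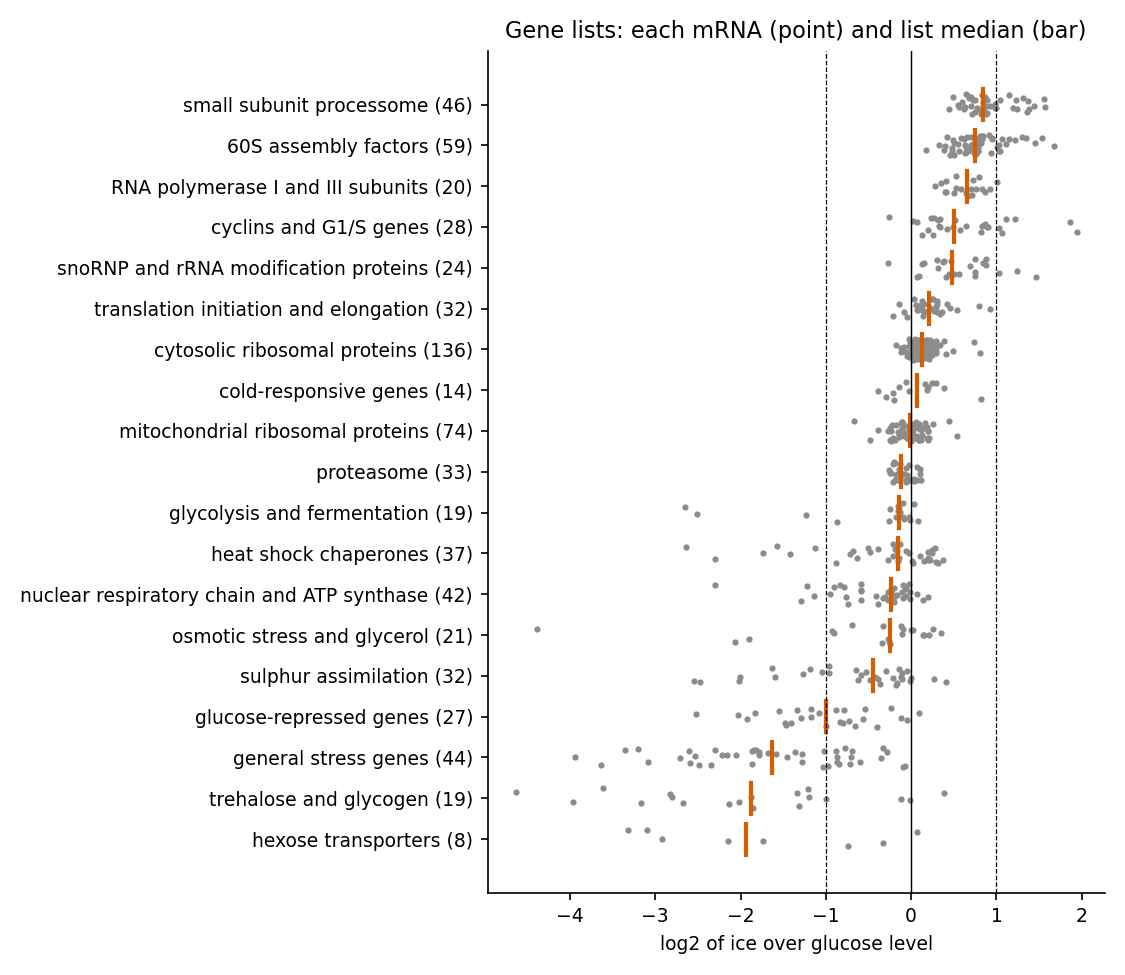
Log2 ratio of ice to glucose (horizontal) for every gene (grey point) of 19 gene lists, with the list median (orange bar) and the number of genes in brackets. Dashed lines mark 2-fold differences. Medians run from -1.94 for the 8 hexose transporter genes past the count limit to 0.85 for the small subunit processome.

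Regulators of nutrient and stress responses included genes on both sides. Of 48 genes, 8 were at least 2-fold lower (16.7% against 5.24% of all genes). At least 2-fold higher were 2 genes, or 4.17% against 1.90% of all genes, which is too few to set the list apart. MTH1, a repressor of hexose transporter genes in low glucose, had a mean count of 4157 in glucose and 599 on ice (log2 -2.79). MGA1, related to heat shock factors, had 1490 and 190 (log2 -2.97), and CIN5, of the YAP family, had 1085 and 188 (log2 -2.52). CAT8 and HAP4, activators of gluconeogenesis and respiration, had log2 ratios of -1.92 and -1.34. The repressor NRG1 had -1.52.

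The 2 higher genes were IFH1 and TOD6. IFH1, a coactivator of ribosomal protein genes, had 1824 and 4485 (log2 1.30). TOD6, a repressor that binds the PAC motif, had 691 and 1550 (log2 1.16). DOT6, the paralogue of TOD6, had 7932 and 6226 (log2 -0.35). FHL1, the partner of IFH1, had 1211 and 1904 (log2 0.65).

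Factors that assemble ribosomes were higher on ice. All 46 genes of the small subunit processome, the particle that forms around U3 on the nascent pre-rRNA, lay above 0, with a median of 0.85. Of them 12 were at least 2-fold higher (26.1% against 1.90% of all genes) and none was 2-fold lower. BFR2 had a mean count of 953 in glucose and 2836 on ice (2.97-fold, log2 1.57). UTP18 had 722 and 2131 (log2 1.56), and UTP6 had 498 and 1356 (log2 1.44). The RNA helicase genes DBP8 and DHR2 had log2 ratios of 1.37 and 1.36. KRR1 had the lowest ratio in the list, with 2480 and 3367 (log2 0.44).

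The 59 assembly factors of the large subunit also all lay above 0, with a median of 0.75, 13 of them at least 2-fold higher (22.0% against 1.90% of all genes) and none 2-fold lower. DBP7, a helicase gene, had 632 in glucose and 2021 on ice (log2 1.67). NOG2, a GTPase gene, had 2120 and 6144 (log2 1.53), SSF1 had 965 and 2638 (log2 1.45), and the methyltransferase gene SPB1 had 2485 and 6111 (log2 1.30). NOG2 and REI1 (log2 1.35) overlap another annotated gene. TIF6 was the lowest of the list with 3909 and 4424 (log2 0.18). RSA4, also of large subunit assembly but outside the list, had 633 and 1844 (log2 1.54).

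Box C/D and H/ACA snoRNP genes and their partners had a median of 0.48 over 24 genes, with 3 at least 2-fold higher (12.5% against 1.90% of all genes). RRP9, a U3 snoRNP protein, had 1026 in glucose and 2837 on ice (log2 1.47). TRF5, a poly(A) polymerase of nuclear RNA surveillance, had 436 and 1035 (log2 1.24), and SHQ1, of H/ACA assembly, had 388 and 793 (log2 1.03). The core proteins had smaller differences, NOP1 with 12191 and 15947 (log2 0.39), NOP56 with 0.47, NOP58 with 0.50 and CBF5 with 0.45. PIH1, of the R2TP chaperone complex, was the single member of the 4 assembly lists below 0, with 573 and 476 (log2 -0.27).

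Subunits of RNA polymerases I and III lay above 0 in 20 of 20 cases, with a median of 0.66 against 0.04 over all genes. RPA190 and RPA135, the large subunits of polymerase I, had log2 ratios of 0.70 and 0.72. RPA12 was past 2-fold with 544 and 1092. RRN11, a core factor subunit that recruits polymerase I, was among the 15 highest with 257 and 1109 (4.30-fold, log2 2.11). In the 4 assembly lists together, 29 of 148 genes were at least 2-fold higher and 0 were 2-fold lower. The shares over all genes were 1.90% and 5.24%.

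Genes of the ribosome itself did not show differences of this size. The 136 ribosomal protein genes had a median of 0.13, and 134 lay within 1.5-fold, against 80.6% of all genes. They held 15.2% of the counts in glucose and 16.5% on ice. Without the scaling their median was 0.01. The highest were RPL22B with 1106 in glucose and 1929 on ice (log2 0.80) and RPS9A with 1964 and 3278 (log2 0.74), while RPL15B was the lowest with 919 and 816 (log2 -0.17).

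Most ribosomal proteins come from a pair of duplicated genes. Across 58 pairs the log2 ratios of the copies differed by a median of 0.07, and 2 pairs differed by more than 0.5. The largest difference was 0.57, between RPL22A (log2 0.23) and RPL22B. Copies of a pair share much of their coding sequence, so reads may have been divided between them in part arbitrarily. Mitochondrial ribosomal protein genes had a median of -0.01 over 74 genes, with none past 2-fold (1.90% higher and 5.24% lower over all genes).

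Translation factors differed little, with a median of 0.21 over 32 genes and none past 2-fold (1.90% higher and 5.24% lower over all genes). The largest ratios were those of NIP1, a subunit of initiation factor 3, with 2639 in glucose and 4999 on ice (log2 0.92), and of the helicase gene DED1 with 2985 and 5194 (log2 0.80).

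The highest ratio among genes averaging at least 200 counts was that of AQR1, which encodes a plasma membrane exporter. Its mean count was 534 in glucose and 3349 on ice, or 6.26-fold higher (log2 2.65). The uncharacterised YGR079W had 286 and 1471 (log2 2.36). SFG1, a regulator of superficial pseudohyphal growth, had 459 and 1979 (log2 2.11). VTS1, an RNA-binding protein gene, had 382 and 1377 (log2 1.85). Of the 15 highest, DBP7, BFR2, UTP18, RSA4 and RRN11 act in making ribosomes. GFD2 had 443 and 1388 (log2 1.64), and ADF1, which overlaps another annotated gene, had 276 and 858 (log2 1.63). The uncharacterised YOR338W and YLR063W had log2 ratios of 1.90 and 1.83, and BSC1 had 1.77.

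Some genes averaging under 200 counts had larger ratios. The 4 given here were named after their values had been seen, and they passed the limit of 50 only through the ice level, so a high ratio was in part fixed by that limit. IRC13 had a mean count of 3.32 in glucose and 74.7 on ice (log2 4.13, counting error 0.27), but it overlaps another annotated gene, and the sources used here do not say if counting used the strand. SPO19, which encodes a meiotic prospore protein, had 4.86 and 84.3 (log2 3.86). RRT5 had 31.3 and 276 (log2 3.10), and YBR032W had 16.6 and 120.0 (log2 2.78).

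Cell cycle genes tended towards higher levels on ice. Of 28 cyclins and genes of the G1/S transition, 27 lay above 0, 6 were at least 2-fold higher (21.4% against 1.90% of all genes) and none was 2-fold lower, with a median of 0.51. FAR1, which arrests cells in G1 in response to pheromone, had a mean count of 622 in glucose and 2391 on ice (3.84-fold, log2 1.94). CDC6, which loads the replicative helicase, had 65.1 and 238 (log2 1.86). The mitotic cyclin gene CLB2 had 559 and 1302 (log2 1.22). The homeodomain repressor genes YOX1 and YHP1 had 1.12 and 1.06, and RNR1, of ribonucleotide reductase, had 4111 and 8403 (log2 1.03).

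The G1 cyclins were closer to their glucose level, with CLN1 at 0.23, CLN2 at 0.32 and CLN3 at 0.13. WHI5, the G1 repressor, had 440 and 369 (log2 -0.26). Core histone genes had a median of 0.05 over 10 genes and none was past 2-fold. With 1.90% of all genes higher and 5.24% lower, a list this short would hold few if any. In whole cultures a different share of cells in a phase and a different amount of RNA per cell cannot be told apart.

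Genes known to respond to growth in the cold did not stand out. None of 14 such genes was past 2-fold in either direction, 7 lay above and 7 below 0, and the median was 0.07 (-0.05 without the scaling). Only 1.90% of all genes were 2-fold higher and 5.24% lower, so none of 14 is near those shares. NSR1, a nucleolin-like protein gene, was the highest with a mean count of 8867 in glucose and 15663 on ice (log2 0.82). TIP1 had 4690 and 4037 (log2 -0.22), TIR1 had 137 and 119 (log2 -0.20) and TIR2 had 117 and 89.2 (log2 -0.39). OLE1, the fatty acid desaturase gene, had 12942 and 15813 (log2 0.29). The seripauperin genes, of which 2 of 24 had enough counts, had log2 ratios of -0.59 and -0.12.

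Sulphur assimilation genes were lower in part. Of 32 genes, 9 were at least 2-fold lower (28.1% against 5.24% of all genes) and none was 2-fold higher, with a median of -0.45. The lowest were MET28, a regulator of the pathway, with a mean count of 1582 in glucose and 270 on ice (log2 -2.55), and STR3, cystathionine beta-lyase, with 3570 and 643 (log2 -2.47). MUP3, a permease gene, had 1379 and 339 (log2 -2.02), and MET2, of homocysteine synthesis, had 2945 and 732 (log2 -2.01). The sulphite reductase genes MET5 and MET10 had 0.00 and -0.39, and MET6, methionine synthase, had -0.14.

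Amino acid synthesis genes under Gcn4 differed little, with 48 of 49 within 1.5-fold (80.6% of all genes were) and a median of -0.02. ARG3 was the exception with 1265 and 611 (log2 -1.05). Of 23 amino acid and ammonium permeases, 3 were at least 2-fold lower (13.0% against 5.24% of all genes), namely PUT4, AGP2 and AGP3. That count is too small to set the list apart.

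Respiratory chain and ATP synthase genes encoded in the nucleus lay below 0 in 39 of 42 cases. Their median was -0.24 against 0.04 over all genes. At least 2-fold lower were 4 (9.52% against 5.24% of all genes), a count too small to set the list apart. STF2 and STF1, small proteins linked to the ATP synthase inhibitor, had log2 ratios of -2.30 and -1.14. NDI1 and NDE2, the internal and an external NADH dehydrogenase, had -1.22 and -1.29. Subunits of succinate dehydrogenase followed, with SDH1 at -0.95 and SDH4 at -0.90. The TCA cycle had a median of -0.23 with none of 14 past 2-fold, near the shares of all genes (1.90% higher, 5.24% lower). CIT1, citrate synthase, was its lowest with 9936 in glucose and 5182 on ice (log2 -0.94).

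Osmotic stress and glycerol genes had 3 of 21 at least 2-fold lower (14.3% against 5.24% of all genes), too few to set the list apart. Besides RCK1 the lower genes were GCY1 (log2 -2.07) and GPD1, glycerol-3-phosphate dehydrogenase, with 12045 and 3236 (log2 -1.90). Its paralogue GPD2 had 4211 and 4189 (log2 -0.01), and RCK2, the paralogue of RCK1, had 4416 and 3686 (log2 -0.26). Peroxide defence genes had 3 of 21 lower (14.3% against 5.24% of all genes), again too few to set the list apart. They were TSA2 (-1.27), PRX1 (-1.27) and GRX2 (-1.07), while TSA1 was at -0.04 and TRX1 at 0.00. GRX2 overlaps another annotated gene. Cell wall genes had 2 of 30 lower, PIR3 (-2.08) and CWP1 (-1.29), a share of 6.67% that is near the 5.24% of all genes.

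Several pathways held no gene past 2-fold. These were the proteasome with a median of -0.12 over 33 genes, ergosterol synthesis with 0.16 over 26, fatty acid and phospholipid synthesis with 0.12 over 18, and the iron regulon with 0.04 over 27. With 1.90% of all genes higher and 5.24% lower, lists of these sizes would hold few such genes. The phosphate regulon had a single gene past 2-fold among 22 (4.55% higher against 1.90% of all genes), PHM6 with a mean count of 64.8 in glucose and 139 on ice (log2 1.09). PHO84, the main phosphate transporter gene, had 1818 and 3195 (log2 0.81). PHO5, the repressible acid phosphatase, had 436 and 426 (log2 -0.03).

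Common reference genes for quantitative PCR stayed close to equal in relative level. All 10 were within 1.5-fold, as were 80.6% of all genes, and their median was 0.05 (-0.07 without the scaling). ACT1 had a log2 ratio of -0.12 and TAF10, the study's reference, had 1219 and 1417 (log2 0.22). Among the genes the study followed by quantitative PCR, ALD6, the cytosolic acetaldehyde dehydrogenase, had 22664 in glucose and 10774 on ice (log2 -1.07). RPS20 had a log2 ratio of 0.10 and TMA7 had 0.17, and RCK1 is given above. These ratios compare the conditions over both strains. The paper reports ALD6 and RCK1 as higher in the snr4 deletion strain than in BY4741 under standard conditions. That difference is part of their pooled glucose means, and its share in these ratios was not tested.

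The upstream sequences were searched for the motifs printed above, on both strands, in the 300 bases before the start codon of 5354 genes. Overlapping matches were counted as separate copies. Windows were not cut at neighbouring genes, so some reach into adjacent coding sequence, as that of ADF1 does into KRR1. Divergent neighbours can also share a motif, so a copy need not belong to the gene it is counted for. The stress response element AGGGG was in 22.6% of all windows, in 62.1% of those of the lower genes and in 8.82% of those of the higher genes. The median log2 ratio was 0.09 for 4142 genes without a copy, -0.14 for 1026 with 1 copy, -0.48 for 155 with 2 and -1.37 for 29 with 3. The 2 genes with 4 or more copies had a median of -0.40. The motif was in 77.3% of windows of the general stress genes and in 47.4% of those of the trehalose and glycogen genes. GSY1, RCK1, ISF1, GAC1 and TMA10, all among the 15 lowest, had none in the window.

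PAC (GATGAG) was in 18.9% of all windows, in 60.8% of those of the higher genes and in 11.1% of those of the lower genes. The median log2 ratio was 0.01 without a copy (4341 genes), 0.17 with 1 copy (846), 0.54 with 2 (138) and 0.61 with 3 (22). The 7 genes with at least 4 copies had a median of 0.81. PAC was in 87.0% of windows of the small subunit processome genes and in 93.2% of those of the large subunit assembly factors, against 11.8% of those of ribosomal protein genes. SFG1, FAR1, YOR338W and BSC1, among the 15 highest, had none. The RRPE core, searched as AAATTTT, was in 25.7% of all windows, 63.7% of those of the higher genes and 17.1% of those of the lower genes.

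Other motifs were spread more evenly. The heat shock element unit, searched as TTCNNGAA or GAANNTTC, was in 22.6% of all windows, 22.5% of those of the higher genes and 23.9% of those of the lower genes. It was in 67.6% of windows of the chaperone genes. The TATA box, searched as TATAAA, was in 47.5%, 53.9% and 56.1% respectively. The letters of PAC, the stress response element and the heat shock unit do not contain one another, but assembly genes often hold PAC and RRPE together, and the lists share genes with the higher and lower sets. These shares are therefore descriptions and not separate lines of evidence.

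**Figure D5:**
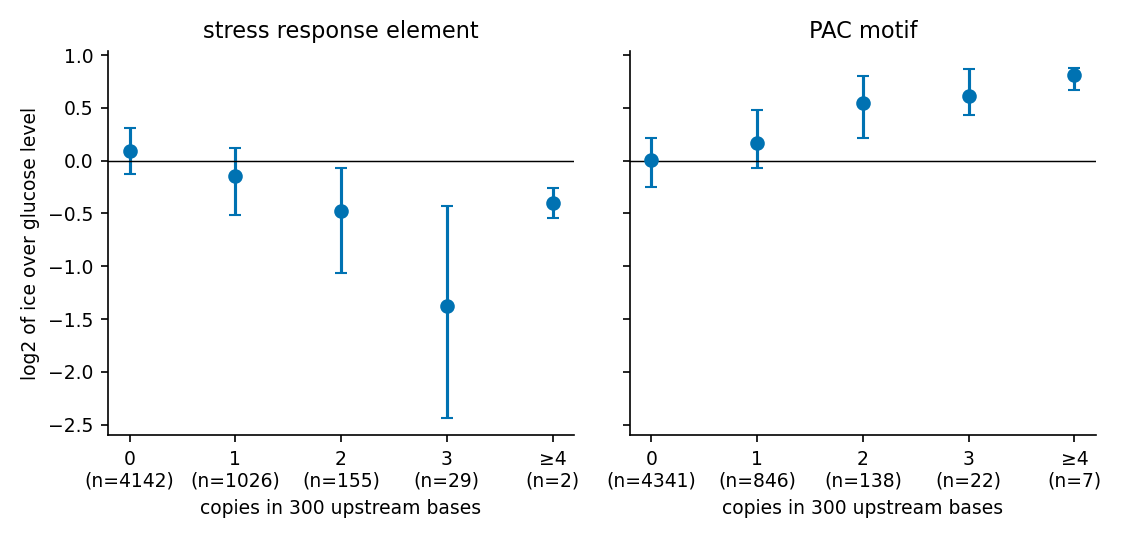
Median log2 ratio of ice to glucose (points) with quartiles (bars) by the number of copies of the stress response element (left) and PAC (right) in the 300 bases before the start codon. The number of genes is under each point, and overlapping matches count as separate copies. Medians go from 0.09 to -1.37 between 0 and 3 copies of the stress response element, with 2 genes at 4 or more, and from 0.01 to 0.81 between 0 and at least 4 copies of PAC.

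Longer genes had slightly higher ratios. The median was 0.00 for 639 genes with coding sequences under 500 bases and 0.26 for 475 genes of at least 3000 bases, and across 5358 genes Spearman's rho was 0.18. RNA integrity was not tested. The median coding length was 1281 bases among the higher genes and 1247 among the lower genes, against 1262 over all. Genes with introns were 4.98% of all, 0.98% of the higher and 2.84% of the lower genes. Of the 5418 genes compared, 107 overlap another annotated gene, among them 4 of the 103 higher and 11 of the 284 lower genes. GLK1, GRX2 and PHO84 are also among the overlapping genes.

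At the limit of 50 counts, the genes just inside were YPL279C with 50.1 in glucose, YLR031W with 50.1 in glucose and YER138W-A with 52.7 on ice before scaling. Those just outside were YBR012W-B with 49.9 on ice, REC8 with 49.6 in glucose and YOR390W with 49.3 in glucose.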

How the data were processed

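RNA from 12 libraries was used, in 4 groups of 3 taken from the sample titles. STAR alignment, gene counting by HTSeq and a DESeq2 comparison of the strains within each condition were done by the authors, as stated in the study's methods and the submitters' processing notes. The deposited value used is the mean normalised count per gene over the 6 libraries of a condition, a signal on a linear scale that the authors had divided by library size factors estimated separately for each condition. The tables also hold the authors' log2 fold changes between strains, with errors, test statistics, p-values and adjusted p, none of which was used, and the table of the U3 experiment was not used. Antisense and overlapping genes are uncertain, since counting by strand is not stated.

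Mean counts on ice were multiplied by 1.085 to match the sum over 5418 genes, and the log2 ratio was taken after adding 1. A gene was called higher or lower past 2-fold. With 1 pooled value per condition no test was possible. Total reads per library are not given. The steps between the lowest means gave size factors of 0.44 to 1.58 in glucose and 0.67 to 1.89 on ice, with 1 read worth 0.18 on average, and explained 100% of the distinct values under 0.75. They gave the counting error.

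Gene names and coordinates are those of R64 (RefSeq), the build named in the submitters' notes, and 5359 of the genes were matched by systematic name. Named genes were the 15 highest and 15 lowest averaging at least 200, the 3 highest and lowest of each of 34 lists, the genes followed by quantitative PCR and those at the limit. The result of 1 list is not reported here. Other list members were added as examples after their values had been seen. The members, the lists and the motifs were chosen with earlier results of these data known. RRPE was added and 5 misassigned names were removed from lists after values had been seen. Alternatives were other scalings, added constants, filters and thresholds, and leaving out overlapping genes. The calculations were tested on simulated data. Calculations used Python 3.11.15 with pandas 2.3.3, numpy 2.4.6 and scipy 1.17.1, and figures matplotlib 3.10.9.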

Additional observations from a re-analysis of the deposited data

How the results depend on the processing

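The 11 alternatives were other scalings, added constants, limits on mean count, fold thresholds and, chosen after seeing the data, leaving out genes that overlap another. With a threshold of 1.5-fold 466 genes were higher and 584 lower, and with 4-fold 8 were higher and 83 lower. Under the other alternatives the counts of higher genes ran from 78 (without scaling) to 142 (without a limit on mean count), against 103, and those of lower genes from 247 (average count of at least 200) to 347 (without scaling), against 284. The lower genes made up 73.4% of those past 2-fold, and 55.6% at 1.5-fold and 91.2% at 4-fold. Leaving out the scaling took the median of all genes from 0.04 to -0.07. The medians of 6 of the 34 lists then changed sign under at least 1 scaling, all of them within 0.11 of 0: amino acid permeases, cold-responsive genes, core histones, the iron and phosphate regulons and the reference genes. Of 305 list medians computed under the alternatives, 44 moved by over 0.1, 37 downwards and 7 upwards, and 0 changed sign beyond 0.1 on both sides. Leaving out the scaling lowers all ratios by nearly the same amount, and it moved every list median downwards. Most of the 37 downward moves came from that setting. The hexose transporters moved most, from -1.94 to -0.78 without a limit on mean count.

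No paired analysis was possible because each deposited mean pools 6 libraries, and leaving out a library in turn was not run for the same reason. The spread between replicates and batch effects were therefore not measured. Differences between the strains were not measured either, since the authors' fold changes between strains were not used. Depth limits the genes with the fewest counts, where counting error reached 0.27 on the log2 scale.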
